A study of Mus musculus with 14 samples.

Results

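Iron-responsive element genes are the mRNAs of iron storage, uptake and export that carry a short RNA hairpin, the iron-responsive element (IRE), together with the proteins that bind it. The 6 genes described here are Fth1, Ftl1, Tfrc, Slc40a1, Ireb2 and Aco1, picked by name and not by a measured value. They are 6 of 14241 genes, each represented by its transcript with the highest mean abundance. The study sequenced ribosome-protected fragments (Ribo-seq, 25 to 35 nt) and RNA fragments (RNA-seq, 40 to 60 nt) from C57BL/6J mouse embryonic fibroblasts, connective tissue cells kept in culture. METTL3 knockdown (shMETTL3, a hairpin against the enzyme that writes N6-methyladenosine on mRNA) and ABCF1 knockdown (shABCF1, a hairpin against a ribosome-associated ATP-binding protein) had 2 libraries per assay. Torin stands for cells given Torin1, an inhibitor of the mTOR kinase, at 250 nM for 2 h, with 1 library per assay, and Scram for a scrambled hairpin with 2 libraries per assay. The protocol names DMSO as the vehicle of Torin1, and the labels do not give which libraries received it. All cells were lysed with cycloheximide, a blocker of translation elongation, at 100 µg/ml. The labels give no promoter or clone for the hairpins, nor the cultures the replicates came from, and a p-value here therefore reflects the spread among libraries, which may be technical.

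In iron-poor cells the iron regulatory proteins IRP1 (encoded by Aco1) and IRP2 (encoded by Ireb2) bind IREs. An IRE in the 5′ untranslated region (UTR) lets a bound protein block ribosome entry on ferritin and ferroportin mRNA, while IREs in the 3′ UTR of transferrin receptor mRNA shield it from decay. When iron is plentiful, IRP1 takes up an iron-sulfur cluster and works as a cytosolic aconitase, and IRP2 is degraded. Storage then rises and uptake falls, so translation of the ferritins and the mRNA level of Tfrc are the classical readouts of this circuit.

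The hairpins themselves are printed here because they sort the members into those with an element before the coding region, those with elements after it, and those with none. Transcripts of GENCODE M21 on GRCm38 were searched on the transcribed strand for a bulged C, 5 bases, the loop CAGUGN and 5 bases that all pair with the first 5 by Watson-Crick or G-U pairing. The windows are 30 bases long and run 5′ to 3′, with the 6 loop bases in capitals.
Fth1, 5′ UTR, chr19:9982732-9982761, plus strand: uuccugcuucaaCAGUGCuugaacggaacc
Ftl1, 5′ UTR, chr7:45459778-45459807, minus strand: gucuugcuucaaCAGUGUuugaacggaaca
Slc40a1, 5′ UTR, chr1:45925464-45925493, minus strand: caacuucagcuaCAGUGUuagcuaaguuug
Tfrc, 3′ UTR, the first, chr16:32631219-32631248, plus strand: aauuaucggaagCAGUGCcuuccauaauua
Tfrc, 3′ UTR, the second, chr16:32631598-32631627, plus strand: cauuaucgggagCAGUGUcuuccauaaugc
Tfrc, 3′ UTR, the third, chr16:32631663-32631692, plus strand: cuauaucggagaCAGUGAucuccauauguu
Tfrc, 3′ UTR, the fourth, chr16:32631710-32631739, plus strand: aauuaucgggaaCAGUGUuucccauaauuu

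The 2 ferritin windows shared 26 of 30 bases at the same position, against 13 shared with the Slc40a1 window by each of them. The 4 Tfrc windows shared 18 to 25 bases with each other 9 to 13 with the ferritin windows and 13 to 16 with the Slc40a1 window. Each element before a coding region lay close to the start of its transcript, with the loop beginning at base 99 of Fth1, base 90 of Ftl1 and base 102 of Slc40a1. The Tfrc loops began at bases 895, 1274, 1339 and 1386 of a 3′ UTR of 2458 bases. The same pattern occurred in the 5′ UTR of 14 of 13768 kept transcripts (0.102%), in the 3′ UTR of 88 of 13942 (0.631%) and in the coding region of 103 of 14137 (0.729%). A match is a run of letters and says nothing of binding. No window of these letters was found in Ireb2 or Aco1.

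**Figure D1:**
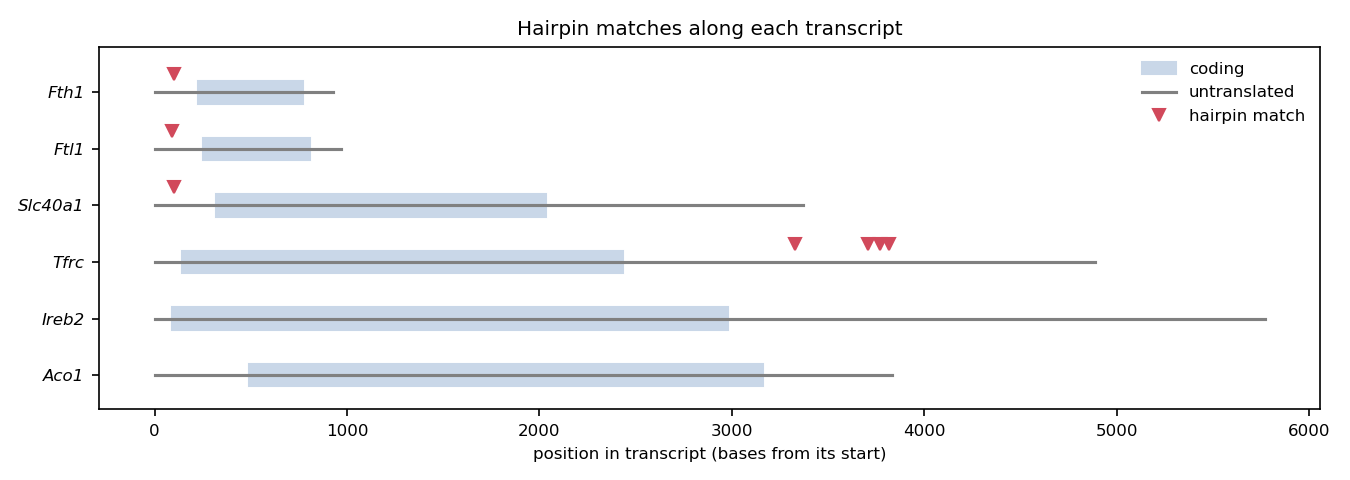
Position of the hairpin matches (triangles, at the first loop base) along the transcript of each of the 6 genes, in bases from the transcript start; boxes are coding and lines untranslated. Fth1, Ftl1 and Slc40a1 each hold 1 match before the coding region, Tfrc holds 4 after it, and Ireb2 and Aco1 hold none.

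Values are deposited RPKM, reads per kilobase of length and per unit of library size. They were scaled here so that every library of an assay has the same median over tested genes. A change common to all genes of a library, such as a general loss of footprints, therefore cannot be seen. Levels and percentages of Scram are relative to that median and not absolute. Depths recovered from the deposited values were 1764404 to 5155238 reads for the Ribo-seq libraries, and RNA-seq libraries held 1197858 to 3802702. Replicate 1 libraries stood apart from replicate 2 and Torin libraries, with correlations across genes of 0.58 to 0.67 between the sets and 0.86 to 0.97 within them in RNA-seq. The 3 replicate 1 files per assay list transcripts from 1 read up. Replicate 2 and Torin files list few under 5 or 6 reads, and Lars2 held 35.4% to 41.6% of their RNA-seq reads but had no value in the replicate 1 RNA-seq files. The part of these differences in the results was not tested, and each change is therefore given within its set, Torin against Scram replicate 2. The targets were checked first: in METTL3 knockdown cells Mettl3 stood at 29.0% and 77.9% of Scram in RNA-seq and 12.3% and 38.7% in Ribo-seq, and in ABCF1 knockdown cells Abcf1 stood at 29.3% and 47.8% in RNA-seq and 34.3% and 50.6% in Ribo-seq, in replicates 1 and 2. Fibroblast markers were abundant, with 7 to 9 of 9 listed and a summed level of 2095.4 to 9668.9 scaled RPKM. Of other cell types, 0 of 6 erythroid, at most 1 of 5 hepatocyte, 3 of 6 macrophage and 3 of 4 endothelial markers were listed in a library, summing to at most 0.5 scaled RPKM for hepatocytes, 26.6 for macrophages and 2.2 for endothelium, and 1 to 3 of 5 epithelial markers summed to 30.5 to 246.5. Krt18 made up most of the epithelial sum in every library, as with 244.7 of 246.5 in ABCF1 knockdown Ribo-seq replicate 2. Epcam was listed in METTL3 knockdown Ribo-seq replicate 2 alone, at 15.57 scaled RPKM. In bulk samples, fewer cells of a type and less RNA per cell cannot be told apart.

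Fth1 (chr19:9982646-9985098, plus strand, 4 exons) encodes the ferritin heavy chain, the subunit that oxidises iron for storage. Its mRNA stood at 951 and 683 scaled RPKM in METTL3 knockdown, 769 and 557 in ABCF1 knockdown, 734 in Torin and 838 and 822 in Scram. It ranked at or above the 99.6th percentile of tested genes in every RNA-seq library. Its footprints stood at 629 and 792 scaled RPKM in METTL3 knockdown, 519.7 and 507 in ABCF1 knockdown, 802 in Torin and 697 and 886 in Scram. Both ABCF1 knockdown Ribo-seq libraries were below both Scram libraries, whereas the METTL3 knockdown libraries lay on either side of the lower Scram value. The log2 change of footprints in ABCF1 knockdown was -0.42 in replicate 1 and -0.80 in replicate 2, with a counting error of 0.05 to 0.06, and that of mRNA was -0.12 and -0.56. The estimate of the footprint change was -0.61 (SE 0.30, n = 2 libraries per group, limma adjusted p = 1), which did not pass. It was -0.26 without Scram replicate 2 and -0.79 without Scram replicate 1, and with the replicate as a block its adjusted p was 0.556.

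Ftl1 (chr7:45457944-45459884, minus strand, 4 exons) encodes the ferritin light chain, the subunit that promotes mineral formation inside the shell. Its mRNA stood at 214 and 75.2 scaled RPKM in METTL3 knockdown, 181 and 48.0 in ABCF1 knockdown, 82.2 in Torin and 193 and 84.8 in Scram. Replicate 1 libraries were above all replicate 2 and Torin libraries. Its footprints stood at 70.7 and 117 scaled RPKM in METTL3 knockdown, 81.8 and 43.2 in ABCF1 knockdown, 147 in Torin and 117 and 96.4 in Scram. In METTL3 knockdown the replicates went opposite ways, with log2 changes of -0.72 and 0.28. In ABCF1 knockdown both footprint libraries were below both Scram libraries, with log2 changes of -0.51 and -1.14, beside -0.09 and -0.81 for mRNA. The footprint estimate there was -0.83 (SE 0.45, limma adjusted p = 1), and it did not pass. It ranged over -1.28 without ABCF1 knockdown replicate 1 to -0.55 without replicate 2. With the replicate as a block its SE was 0.37 and its limma adjusted p 0.661. Torin had the highest Ftl1 footprint value of the 7 libraries, 152% of Scram replicate 2, at an mRNA level of 96.9%. That estimate was 0.54 (SE 0.48, limma adjusted p = 0.657), was 0.32 without ABCF1 knockdown replicate 2, and did not pass.

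The ferritin transcripts have close copies, and how reads with several positions were assigned is not stated in the labels. At 90% identity or more over at least 50% of the transcript, Ftl1 matched transcripts of 7 other genes, 6 of them pseudogenes, at up to 99.6%. Fth1 matched 1 pseudogene at 90.5%, and none of these copies was listed in the files. Ferritin values, those of Ftl1 above all, are uncertain to that extent. The ratio of Fth1 to Ftl1 mRNA was 4.24 to 4.45 in the 3 replicate 1 libraries and 8.93 to 11.6 in replicate 2 and Torin, so the sets differed in it more than the groups did.

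Tfrc (chr16:32608920-32632794, plus strand, 19 exons) encodes the transferrin receptor, which brings transferrin-bound iron into the cell. Its footprints stood at 127 and 53.8 scaled RPKM in METTL3 knockdown, 157 and 72.7 in ABCF1 knockdown, 78.0 in Torin and 244 and 86.4 in Scram. Its mRNA stood at 51.6 and 25.1 scaled RPKM in METTL3 knockdown, 59.7 and 26.0 in ABCF1 knockdown, 18.6 in Torin and 58.8 and 24.0 in Scram. Within each replicate, footprints were lower in METTL3 knockdown than in any other group, while mRNA of METTL3 knockdown and Scram differed by little and in opposite directions. Footprints of METTL3 knockdown were 52.1% of Scram in replicate 1 and 62.7% in replicate 2, beside 88.0% and 105% for mRNA. Per mRNA, footprints were at 59.3% and 59.9% of Scram (log2 -0.75 and -0.74). In limma neither passed: the footprint estimate was -0.81 (SE 0.76, adjusted p = 1) and that of the ratio -0.75 (SE 1.08, adjusted p = 1). With the replicate as a block the errors shrank to 0.21 and 0.25, and the adjusted p-values were 0.205 and 0.999. Leaving out 1 library at a time from the fit without a block moved the footprint estimate between -1.42 and -0.06. The ratio estimate moved between -1.38 and 0.00. The 2 sets are then unequally represented, and the part of this in the movement was not tested. The values of -0.06 and 0.00 came without Scram Ribo-seq replicate 1.

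In ABCF1 knockdown the Tfrc footprints were 64.7% and 84.4% of Scram, with mRNA at 101% and 108%. That footprint estimate was -0.44 (SE 0.76, limma adjusted p = 1), and 0.30 without Scram replicate 1. With the replicate as a block its SE was 0.21 and its limma adjusted p 0.671. In Torin the footprints were 90.4% of Scram replicate 2, a difference whose estimate was -0.25 with scaling and 0.00 without. The mRNA was 78.6% of that library, the lowest Tfrc mRNA value of the second set. Its mRNA estimate was -0.40 (SE 0.23, limma adjusted p = 0.964), which did not pass. A second Tfrc transcript, listed in 2 replicate 1 RNA-seq libraries at 0.34 and 0.63 RPKM, is too scarce to bear on these values.

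**Figure D2:**
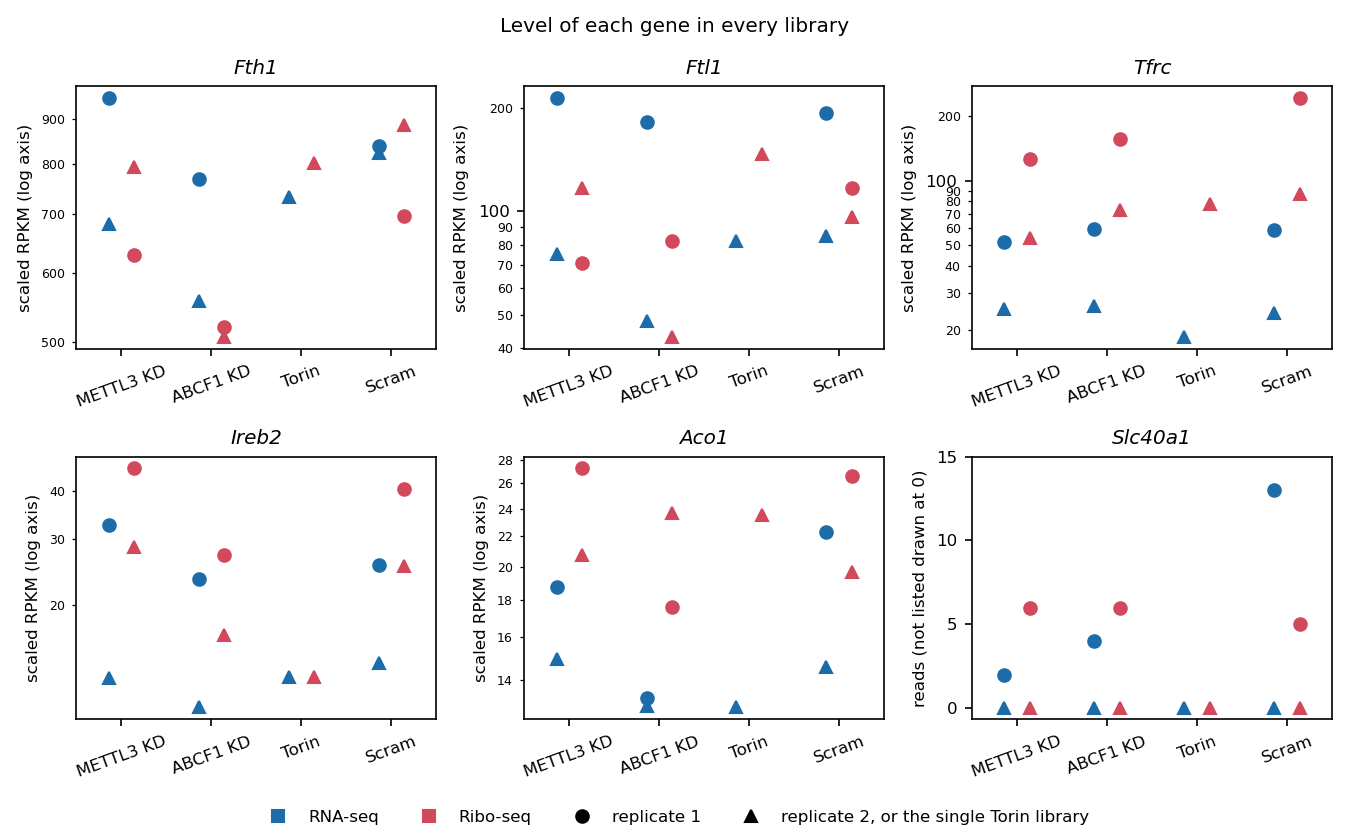
Level of each gene in every library: scaled RPKM on log axes for 5 genes and recovered reads for Slc40a1, with METTL3 knockdown, ABCF1 knockdown, Torin and Scram from left to right; RNA-seq is blue, Ribo-seq red, circles are replicate 1, triangles replicate 2 or the single Torin library, and Slc40a1 is drawn at 0 where it was not listed. Tfrc footprints of METTL3 knockdown (127 and 53.8) lie below those of Scram (244 and 86.4) in both sets, and the sets lie apart for Tfrc and Ftl1 mRNA.

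Slc40a1 (chr1:45908068-45925582, minus strand, 8 exons) encodes ferroportin, the iron exporter of the plasma membrane. It was listed in the 6 replicate 1 libraries alone, at the edge of detection. Its footprints came to 6 reads in METTL3 knockdown, 6 in ABCF1 knockdown and 5 in Scram, and its RNA-seq to 2, 4 and 13 reads. With so few reads it failed the filter on low values and was not tested, so 5 of the 6 members entered every count below. In the second set it was not listed, where the files hold few values under 5 or 6 reads.

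Ireb2 (chr9:54863789-54912530, plus strand, 22 exons) encodes IRP2. Its footprints stood at 45.9 and 28.55 scaled RPKM in METTL3 knockdown, 27.15 and 16.7 in ABCF1 knockdown, 12.96 in Torin and 40.45 and 25.45 in Scram. Its mRNA stood at 32.6 and 12.85 scaled RPKM in METTL3 knockdown, 23.4 and 10.8 in ABCF1 knockdown, 12.98 in Torin and 25.6 and 14.1 in Scram. Torin had the lowest Ireb2 footprint value of the 7 libraries, and ABCF1 knockdown was below Scram in both replicates. Footprints in Torin were 52.8% of Scram replicate 2 at an mRNA level of 92.6%. They rested on 83 reads, against 307 reads in that Scram library, which gives a counting error of 0.18 on the log2 scale. The footprint estimate in Torin was -0.92 (SE 0.27, limma adjusted p = 0.215) and that of the ratio -0.92 (SE 0.35, limma adjusted p = 0.481), so neither passed. In ABCF1 knockdown the footprint change was -0.56 and -0.58 in the 2 replicates, and the estimate was -0.57 (SE 0.45, limma adjusted p = 1). It was -0.25 without Scram replicate 1 and -0.91 without ABCF1 knockdown replicate 1. With the replicate as a block its SE was 0.21 and its limma adjusted p 0.598.

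Aco1 (chr4:40143081-40198338, plus strand, 21 exons) encodes IRP1. Its footprints stood at 27.2 and 20.8 scaled RPKM in METTL3 knockdown, 17.6 and 23.7 in ABCF1 knockdown, 23.5 in Torin and 26.55 and 19.7 in Scram. Its mRNA stood at 18.8 and 15.0 scaled RPKM in METTL3 knockdown, 13.2 and 12.9 in ABCF1 knockdown, 12.8 in Torin and 22.3 and 14.6 in Scram. The groups overlapped in both assays, apart from mRNA in ABCF1 knockdown and Torin, which lay below both Scram values. The log2 change of Aco1 mRNA in ABCF1 knockdown was -0.71 in replicate 1 and -0.16 in replicate 2 (estimate -0.44, SE 0.32, limma adjusted p = 1; -0.15 without Scram replicate 1). With the replicate as a block the SE of that estimate was 0.22 and its limma adjusted p 0.703. In METTL3 knockdown Aco1 footprints differed from Scram by 0.04 and 0.08 (log2). The ratio of Ireb2 to Aco1 footprints was 1.69 and 1.37 in METTL3 knockdown, 1.54 and 0.707 in ABCF1 knockdown, 0.551 in Torin and 1.52 and 1.29 in Scram.

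**Figure D3:**
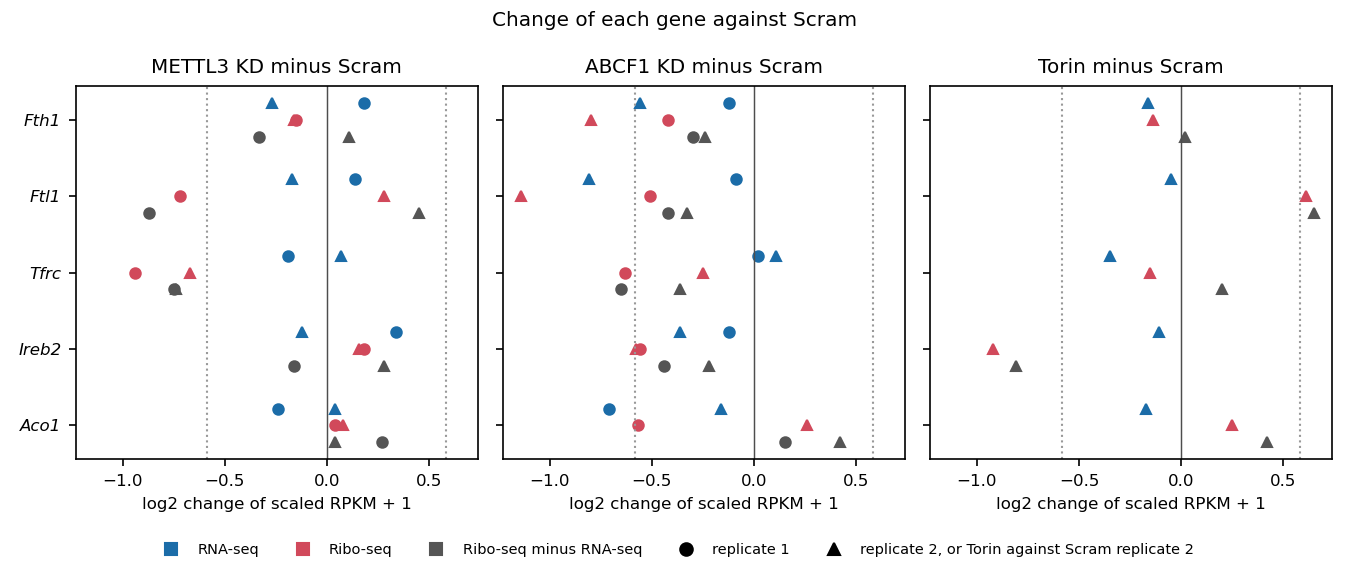
Log2 change of mRNA, footprints and their ratio against Scram of the same replicate for the 5 tested genes (left to right METTL3 knockdown, ABCF1 knockdown, Torin against Scram replicate 2), on the log2 (scaled RPKM + 1) scale; mRNA is blue, footprints red, the ratio grey, circles are replicate 1, triangles replicate 2 or Torin, and dotted lines mark 1.5-fold. Tfrc in METTL3 knockdown has both footprint points (-0.94 and -0.67) beyond the line while its mRNA points lie near 0, and Ireb2 in Torin has its footprint point at -0.92.

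A change counted as large when it reached 1.5-fold the same way in both replicates, or, for Torin, in its single pair. In METTL3 knockdown 0 of 5 members reached it in RNA-seq (background 3.24%), 1 of 5 in Ribo-seq (7.31%) and 1 of 5 in the ratio (6.28%), Tfrc in both. In ABCF1 knockdown 0 of 5 reached it in RNA-seq (3.75%), Ribo-seq (4.13%) or the ratio (6.05%). In Torin 0 of 5 reached it in RNA-seq (18.2%) and 2 of 5 in Ribo-seq (25.8%) and in the ratio (34.1%), namely Ftl1, which was higher, and Ireb2, which was lower. With backgrounds of that size for a single library, 2 of 5 is read as no result about the group.

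By limma (adjusted p under 0.05) 0 of 5 members were called in any of 9 combinations of comparison and measure. In METTL3 knockdown that was also so for every gene tested: 0% of 9018 in RNA-seq, 0% of 9531 in Ribo-seq and 0% of 9425 in the ratio, with 63, 242 and 46 genes at an unadjusted p under 0.05. In ABCF1 knockdown the share called was likewise 0% in RNA-seq, 0% in Ribo-seq and 0% in the ratio, with 79, 107 and 39 genes at an unadjusted p under 0.05. With the replicate as a block, 1 gene was called in METTL3 knockdown Ribo-seq and it was not a member. In Torin 0.111% of genes were called in RNA-seq, 1.32% in Ribo-seq and 0.531% in the ratio, and 0 genes were called in each without the set term. Of those calls, 10 of 10, 40 of 126 and 27 of 50 were of genes not listed in a library of the contrast, whose value was set to 0 here. The median estimate of the 5 members was -0.04, -0.15 and -0.11 for mRNA, footprints and ratio in METTL3 knockdown, against -0.009, 0.02 and 0.041 for all genes. In ABCF1 knockdown it was -0.34, -0.57 and -0.33, against -0.052, 0.002 and 0.06 for all genes. In Torin it was -0.02, -0.08 and 0.15, against -0.027, -0.02 and 0.015 for all genes. The 3 comparisons share their Scram libraries.

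The ratio of footprints to mRNA separated the storage genes from the uptake gene in Scram cells. Relative to the median gene of the same pair of libraries, it was 0.281 and 0.397 for Fth1 and 0.205 and 0.418 for Ftl1 in Scram replicates 1 and 2. Tfrc stood above the median gene, at 1.40 and 1.33. Ireb2 stood at 0.534 and 0.665 and Aco1 at 0.402 and 0.497, between the ferritins and Tfrc in both replicates. RNA-seq is here per whole transcript and Ribo-seq per coding length, so a long UTR or reads missing from one region shift this ratio, and it compares genes less surely than groups. Fth1 ranged over percentiles 8 to 17.2 of all genes in the 7 pairs of libraries. Ftl1 ranged over 2.3 to 33.1, and its 3 replicate 1 values (2.3 to 8.2) were all below those of replicate 2 and Torin (13.2 to 33.1).

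The Tfrc ratio lay on different sides of the median gene, though it passed in none of the 3 comparisons (limma adjusted p = 1 in both knockdowns and 0.953 in Torin). Relative to the median gene it was 0.858 and 0.801 in METTL3 knockdown, 0.908 and 1.04 in ABCF1 knockdown, 1.68 in Torin and 1.40 and 1.33 in Scram. In percentiles of genes that was 43.9 and 39.5 in METTL3 knockdown, 46.2 and 51.6 in ABCF1 knockdown, 74.5 in Torin and 61.9 and 63.6 in Scram. The 2 METTL3 knockdown values and the 2 ABCF1 knockdown values lay below both Scram values, and the Torin value lay above them. For Ireb2 the ratio was 0.4 in Torin, against 0.665 in Scram replicate 2. The ratio of Fth1 to Tfrc footprints was 4.97 and 14.7 in METTL3 knockdown, 3.30 and 6.97 in ABCF1 knockdown, 10.3 in Torin and 2.86 and 10.3 in Scram. METTL3 knockdown was thus above Scram within both replicates, and ABCF1 knockdown was above it in replicate 1 and below it in replicate 2.

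**Figure D4:**
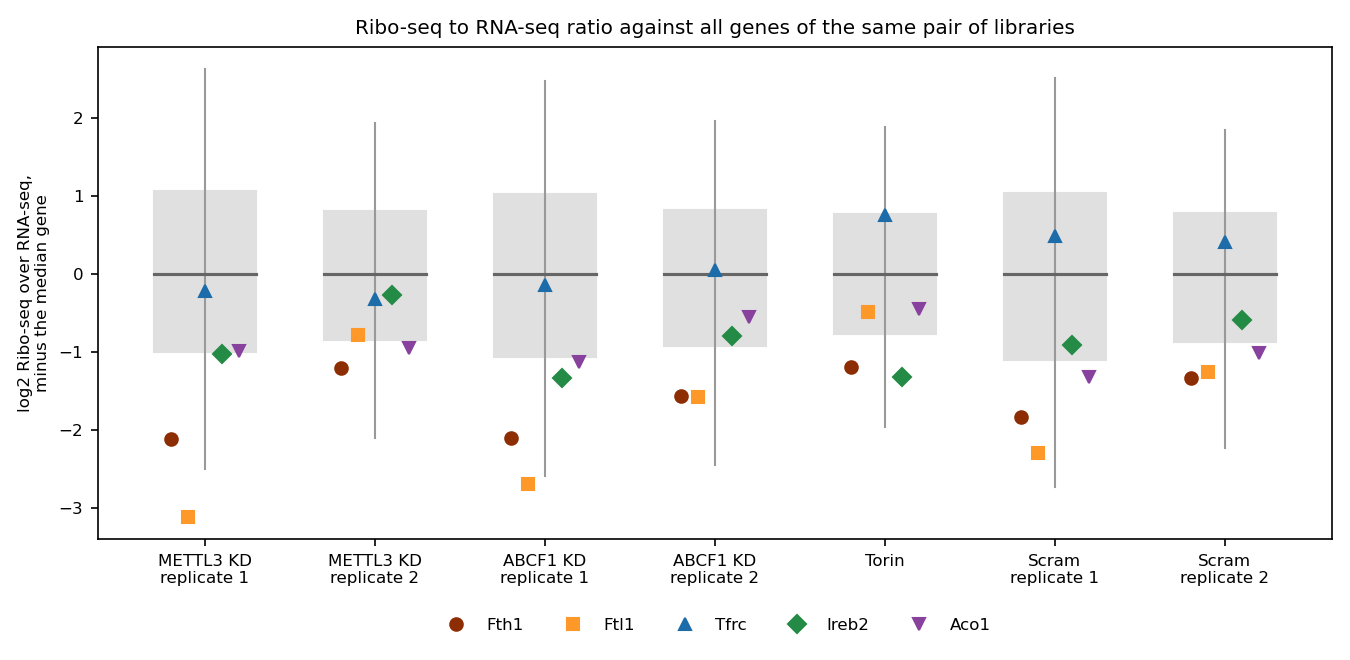
Log2 ratio of footprints to mRNA minus the median gene, for the 5 tested genes in each of the 7 pairs of libraries; grey boxes span the quartiles of all genes and grey lines their 5th to 95th percentile. Tfrc (blue triangles) lies above the median gene in Torin and Scram and below it in METTL3 knockdown, and Fth1 (brown circles) lies below the box in every pair.

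In Scram cells the order of mRNA levels, per length, was Fth1, Ftl1, Tfrc and then Ireb2 and Aco1. The last 2 did not differ beyond their spread, since Ireb2 was higher in replicate 1 (25.6 against 22.3 scaled RPKM) and Aco1 in replicate 2 (14.6 against 14.1). Among footprints Fth1 was again first and Ireb2 and Aco1 last. Tfrc was above Ftl1 in replicate 1 (244 against 117 scaled RPKM) and below it in replicate 2 (86.4 against 96.4), so these neighbours did not differ beyond their spread. The mRNA of Tfrc ran from 51.6 to 59.7 scaled RPKM in replicate 1 and from 18.6 to 26.0 in replicate 2 and Torin, and that of Ireb2 from 23.4 to 32.6 and from 10.8 to 14.1, so that the sets did not overlap for either gene.

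Likeness of pattern was taken as Pearson's r over the 14 libraries, each log2 level centred on its assay and set, among 4013 other genes of ample level. These values share libraries and depth, and r is a description. Among members, Fth1 and Ftl1 were most alike at r = 0.84, and the other 9 pairs ran from -0.28 (Ireb2 with Tfrc) to 0.56 (Fth1 with Ireb2). Fth1 with Tfrc gave 0.05. The genes most like Fth1 were Nab1 (0.92), Nfil3 (0.91) and Senp3 (0.90), and those most like Ftl1 were Slc20a2 (0.87), Nfil3 (0.86) and Gramd4 (0.85). For Tfrc they were Dld (0.88), Pcbp4 (0.87) and Cnot10 (0.87). For Ireb2 they were Casc4 (0.95), Fam162a (0.90) and Sidt2 (0.89), and for Aco1 Nup155 (0.96), Nat10 (0.95) and Snx17 (0.92).

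Around the members, 56 genes of iron handling were followed in 8 lists, of which 51 were listed and 41, 44 and 42 were tested in RNA-seq, Ribo-seq and the ratio. In METTL3 knockdown 0, 2 and 3 of them reached 1.5-fold in both replicates, in ABCF1 knockdown 2, 0 and 2, and in Torin 9, 13 and 17. Those counts stand beside backgrounds of 3.24%, 7.31% and 6.28%, of 3.75%, 4.13% and 6.05%, and of 18.2%, 25.8% and 34.1% of all genes. In limma no list gene was called in either knockdown, 2 of 44 were called in Torin Ribo-seq (all genes 1.32%) and 1 of 42 in the Torin ratio (all genes 0.531%). Of the Torin counts past 1.5-fold, 5, 10 and 10 were of genes listed in every library of the contrast, and the rest, like all 3 calls, rest on a gene not listed in a Torin library and set to 0 here.

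The other genes of iron uptake and reduction (7 of 10 tested in Ribo-seq) held both that reached 1.5-fold in METTL3 knockdown footprints (7.31% of all genes past it). Slc39a14, a zinc and iron importer, stood at 20.8 and 12.5 scaled RPKM of footprints in METTL3 knockdown, against 54.6 and 23.2 in Scram. Steap1 stood at 103 and 68.05 scaled RPKM of footprints in METTL3 knockdown, against 200.1 and 110.2 in Scram. All METTL3 knockdown values of these genes lay below both Scram values, as did those of Slc39a14 in ABCF1 knockdown (20.15 and 19.2) and in Torin (13.5). Estimates in METTL3 knockdown were -1.10 (SE 0.52) for Slc39a14 and -0.82 (SE 0.43) for Steap1, each with a limma adjusted p of 1; with the replicate as a block these were 0.223 for Slc39a14 and 0.209 for Steap1. Neither passed, and without Scram replicate 1 the estimates were -0.50 and -0.39. In Torin 2 of the 7 were higher and 2 lower by 1.5-fold (25.8% of all genes past it). Cybrd1, a ferric reductase and one of those lower, was not listed in Torin Ribo-seq, against 3.84 scaled RPKM in Scram replicate 2. With the missing value set to 0 it was called lower by limma (adjusted p = 0.0311, n = 1 Torin library). That call was lost without the set term (adjusted p = 0.890), under 2 other settings and without either replicate of METTL3 or ABCF1 knockdown (adjusted p = 0.0713 to 0.111). It was not listed in Torin RNA-seq either.

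Ferritin turnover and iron chaperone genes (4 of 5 tested in Ribo-seq) had 2 of the 3 listed in both libraries lower by 1.5-fold in Torin footprints (25.8% of all genes past it). Pcbp2, which hands iron to ferritin, stood at 207 scaled RPKM of footprints in Torin, against 536 in Scram replicate 2, and Glrx3, a cytosolic glutaredoxin, stood at 45.9 scaled RPKM in Torin, against 96.2. Ncoa4, the ferritin autophagy receptor, was not listed in Torin Ribo-seq, against 1.66 scaled RPKM in Scram replicate 2, so no fold is given. None passed, at limma adjusted p = 0.071 for Pcbp2 (0.0331 and 0.0365 without Scram replicates 1 and 2, which would pass), 0.149 for Glrx3 and, with the missing value set to 0, 0.207 for Ncoa4 (0.0447 with a pseudocount of 0.1). In the knockdowns 0 of these 4 reached 1.5-fold in footprints (7.31% of all genes past it in METTL3 knockdown and 4.13% in ABCF1 knockdown).

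Iron-sulfur cluster genes (13 of 13 tested) had 4 of the 12 listed in both libraries past 1.5-fold in Torin footprints, 1 higher and 3 lower (25.8% of all genes past it). Lyrm4, a partner of the cysteine desulfurase Nfs1, was not listed in Torin Ribo-seq, against 19.1 scaled RPKM in Scram replicate 2, with mRNA at 4.84 in Torin and 1.93 in that Scram library. With the missing value set to 0 it was called lower by limma in Ribo-seq (adjusted p = 0.00857) and in the ratio (adjusted p = 0.0242, n = 1 Torin library). The Ribo-seq call held without any 1 library and was lost without the set term (adjusted p = 0.890) and without the filter (0.0784). The ratio call was also lost without 10 of the 12 libraries left out in turn (adjusted p = 0.0538 to 0.103). Files of this set hold few values under 5 or 6 reads, so a gene not listed may have had some, and no fold is given. Nubp1, a cytosolic scaffold of cluster assembly, stood at 22.04 scaled RPKM of footprints in Torin, against 39.8 in Scram replicate 2 (limma adjusted p = 0.216).

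Of heme genes (9 of 11 tested), 2 reached 1.5-fold in ABCF1 knockdown mRNA (3.75% of all genes past it). Hmox1, the heme-degrading oxygenase, stood at 35.2 and 26.4 scaled RPKM of mRNA in ABCF1 knockdown, against 63.0 and 76.4 in Scram, and both knockdown values lay below both Scram values. Ppox, an enzyme late in heme synthesis, stood at 5.28 and 13.3 scaled RPKM of mRNA in ABCF1 knockdown, against 2.46 and 4.01 in Scram. Neither passed (limma adjusted p = 1 for both, and 0.703 for both with the replicate as a block), and the Ppox estimate of 1.19 was 0.48 without ABCF1 knockdown replicate 2. For neither gene did footprints go the way of its mRNA in both replicates. Those of Hmox1 stood at 230 and 173 scaled RPKM in ABCF1 knockdown, against 189 and 717 in Scram, higher in replicate 1 and lower in replicate 2. Those of Ppox stood at 6.21 and 8.91 in ABCF1 knockdown, against 5.47 and 9.53 in Scram.

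Among the 4 tested other mRNAs reported to carry an element, 0 reached 1.5-fold in footprints in any comparison. The share of all genes past it was 7.31% in METTL3 knockdown, 4.13% in ABCF1 knockdown and 25.8% in Torin. Of the 4 genes of the ubiquitin ligase that removes IRP2, 1 reached 1.5-fold in Torin footprints (25.8% of all genes past it). It was Rbx1, at 539 scaled RPKM in Torin, against 811 in Scram replicate 2 (limma adjusted p = 0.407). The 2 tested genes of Tfrc mRNA decay, Zc3h12a and Rc3h1, and the 1 tested export partner, Hephl1 (not listed in ABCF1 knockdown replicate 2), did not reach 1.5-fold in footprints.

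**Figure D5:**
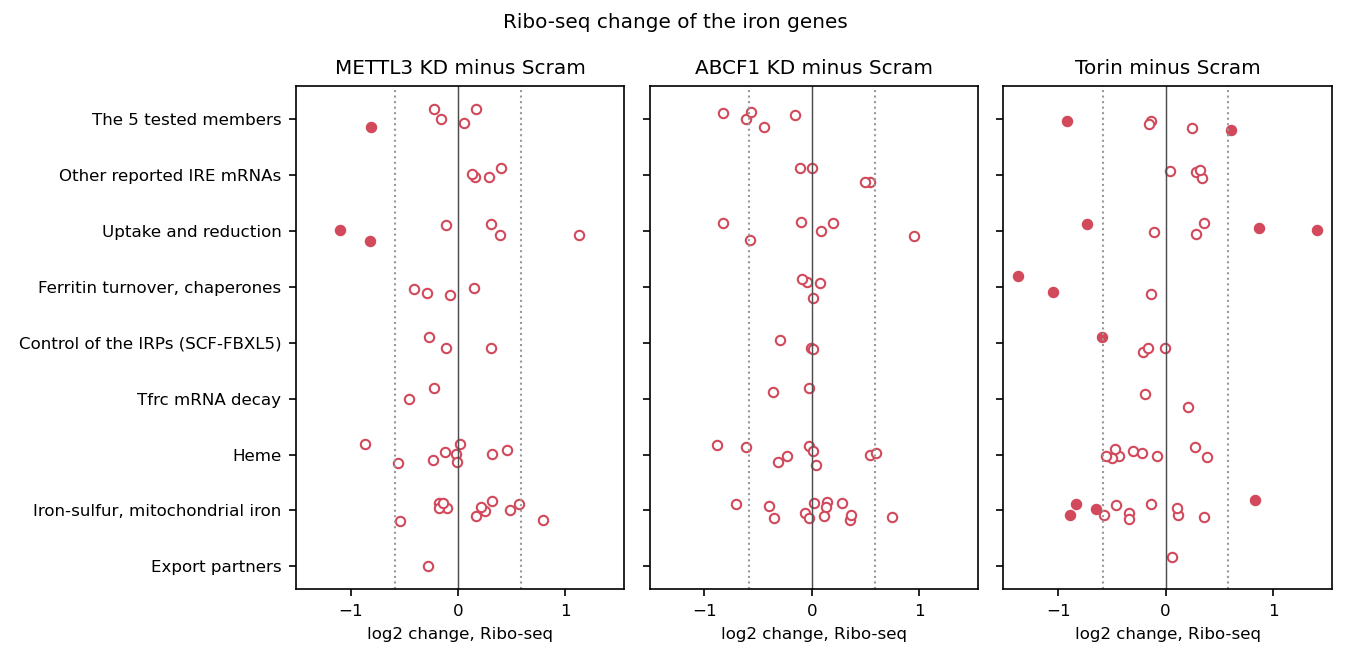
Log2 change of footprints for the 5 tested members and the genes of 8 lists that were tested and listed in every Ribo-seq library of the contrast, 41 in each panel (left to right METTL3 knockdown and ABCF1 knockdown as the mean of 2 replicates, Torin against Scram replicate 2); filled points reached 1.5-fold (in both replicates for the knockdowns) and dotted lines mark it. In METTL3 knockdown the filled points are Tfrc, Slc39a14 and Steap1, in ABCF1 knockdown there are 0, and in Torin there are 10 among the lists beside Ftl1 and Ireb2.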

How the data were processed

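Ribo-seq and RNA-seq of 14 libraries were analysed. The deposited values are RPKM per Ensembl transcript, which the authors made after cutadapt and Bowtie on GRCm38, per the submitters' processing notes; their versions and the rules for strand and for reads with several positions are not stated there. Multiplied by GENCODE M21 lengths, RPKM gave reads whole within 0.02, and thus depths: with coding lengths in Ribo-seq (98.5% to 98.8% of values per library) and with transcript lengths in RNA-seq (81.8% to 87.5%). Counting errors cover counting only.

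Of 22453 transcripts 22356 matched GENCODE M21, and 1 was kept per gene; 5107 genes had several. An unlisted transcript was set to 0. Values were scaled to a common median, a pseudocount of 1 RPKM was added, and genes listed in at least 0.5 of a fit's libraries with a mean RPKM of at least 1 were tested with limma 3.58.1 (R 4.3.3) in 1 fit per assay over all groups, or over both assays for the ratio (interaction contrast), with Benjamini-Hochberg adjustment over all genes tested. Fold changes on this log2 scale understate those of low genes. Knockdown fits had no replicate block; the Torin fit had a term for the set, because Torin is set against Scram replicate 2, and its lone library is assumed to vary like the others. Deviations of same-numbered libraries from their group means correlated at 0.82 to 0.88 (RNA-seq) and 0.91 to 0.94 (Ribo-seq), which ties replicate numbers together. Torin carries no number; its libraries correlated at 0.86 to 0.95 with replicate 2 and 0.61 to 0.66 with replicate 1. Copies were sought with BLAST+ 2.17.0. The code was tested on simulated data. Members, lists and tests were chosen with earlier results of these data known. List genes printed with values are from the 2 with the lowest p per list, comparison and measure. Not all of those are printed, and each one printed had also reached 1.5-fold. Ncoa4 was chosen after its values were seen. Alternatives were another scaling, pseudocount, filter, transcript rule and block, only the groups compared, and 1 library left out.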

Additional observations from a re-analysis of the deposited data

How the results depend on the processing

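Over 45 member changes and 660 alternatives, no member passed the test under any of them (lowest adjusted p 0.151), 594 kept the direction and 66 turned it, none of them for a change past 1.5-fold, though the METTL3 knockdown Tfrc ratio came to 0.00 without Scram Ribo-seq replicate 1. The counts of members past 1.5-fold were the same under every scaling, pseudocount and transcript rule tried, except for 3 in place of 2 in the Torin ratio under quantile normalization; of these settings all but no scaling were chosen after seeing the data, as were those for list genes. Without scaling the median change of all genes was -0.17 and 0.21 in ABCF1 knockdown mRNA and ratio (-0.052 and 0.06 with it) and 0.22 and 0.32 in Torin footprints and ratio (-0.02 and 0.015 with it); there Fth1 turned to 0.18 and 0.28 (Torin footprints and ratio), Tfrc to 0.00 (Torin footprints) and -0.06 (ABCF1 knockdown mRNA), and Ireb2 to -0.06 (Torin mRNA). Under quantile normalization Fth1 turned to 0.48 and 0.56 (Torin footprints and ratio) and Ftl1 to 0.04 (METTL3 knockdown mRNA).

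With no replicate block Torin estimates turned to -0.63 (Ftl1 mRNA), -0.52 (Ireb2 mRNA), 0.03 (Fth1 footprints) and 0.21 (Fth1 ratio), and the genes called fell to 0, 0 and 0 in mRNA, footprints and ratio. With the replicate block METTL3 knockdown Ribo-seq had 1 call in place of 0, and the block changed no other knockdown call. Other Torin counts of 10, 126 and 50 genes became 0, 80 and 32 with quantile normalization, 92 (mRNA) and 200 (ratio) with a pseudocount of 0.1, 0 (mRNA and footprints) without the filter and 21 (mRNA) and 77 (ratio) with summed transcripts. Leaving out 1 library gave 0 to 35, 40 to 272 and 1 to 124; mRNA had 35 and 34 without ABCF1 knockdown replicates 1 and 2 and 0 without any other, footprints had 272 and 257 without Scram replicates 1 and 2 and 40 to 82 without any other, and the ratio had 97 and 124 without ABCF1 knockdown RNA-seq replicates 1 and 2 and 1 to 20 without any other. List genes past 1.5-fold in ABCF1 knockdown became 1 in footprints with summed transcripts, and 4 and 1 in the ratio without scaling and with quantile normalization. The cause was not tested.

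Leaving out 1 library made the estimates below cross 0. In the knockdown fits it leaves the sets unequal. In the Torin fits it changes the libraries that the set term is estimated from, and the part of this was not tested. In METTL3 knockdown mRNA they ranged over -0.28 to 0.08 (Fth1), -0.76 to 0.60 (Ftl1), -0.57 to 0.57 (Tfrc), -0.53 to 0.62 (Ireb2) and -0.26 to 0.19 (Aco1). In its footprints they ranged over -0.50 to 0.19 (Fth1), -0.76 to 0.13 (Ftl1), -0.17 to 0.49 (Ireb2) and -0.14 to 0.26 (Aco1), and in its ratio over -0.46 to 0.23 (Fth1), -0.82 to 0.54 (Ftl1), -0.45 to 0.70 (Ireb2) and -0.14 to 0.36 (Aco1). In ABCF1 knockdown mRNA they ranged over -1.40 to 0.37 (Ftl1), -0.52 to 0.70 (Tfrc) and -0.76 to 0.17 (Ireb2), in its footprints over -1.0 to 0.30 (Tfrc) and -0.52 to 0.05 (Aco1), and in its ratio over -0.45 to 0.08 (Fth1), -1.20 to 0.57 (Ftl1), -1.13 to 0.24 (Tfrc), -0.74 to 0.20 (Ireb2) and -0.09 to 0.49 (Aco1). In Torin they ranged over -0.16 to 0.30 (Fth1), -0.04 to 0.49 (Ftl1) and -0.11 to 0.26 (Ireb2) for mRNA, -0.18 to 0.03 (Fth1) and -0.20 to 0.24 (Aco1) for footprints, and -0.38 to 0.08 (Fth1) and -0.09 to 0.25 (Tfrc) for the ratio. The 5 tested members had 46 to 2613 reads per RNA-seq library and 71 to 2280 per Ribo-seq library, which puts a counting error of up to 0.23 and 0.20 on a log2 change. Recovered RNA-seq reads of Fth1 and Ireb2 were not whole, as with 2613.21 and 278.17 in Scram replicate 2. They were rounded, so their read numbers are approximate.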
